A study of Mus musculus with 12 samples.

Results

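Bone and cartilage lineage genes were followed in mouse mesenchymal stem cells (MSCs) that had been treated with the fibrogenic cytokine TGF-β1. The 10 genes were Runx2, Sp7, Dlx5, Alpl, Bglap, Ibsp, Sox9, Acan, Comp and Tnfrsf11b, matched by symbol among 55401 genes in the expression table. They are standard marks of osteoblast and chondrocyte commitment. MSCs of bone marrow from C57BL/6 mice, bought from a supplier, were left untreated, treated with TGF-β1 at 5 ng/mL, or treated with the same TGF-β1 in the culture supernatant of myeloid-derived suppressor cells (MDSCs). The supernatant came either from monocytic cells (M-MDSC sup, sorted as CD11b+Ly6G-Ly6Chigh) or from granulocytic cells (G-MDSC sup, sorted as CD11b+Ly6G+Ly6Clow). The study asked whether such supernatants hold back the change of MSCs into myofibroblasts. Each of the 4 groups had 3 poly(A) RNA libraries. The sources describe no osteogenic or chondrogenic induction medium for these groups, and no genotype beyond the strain. The paper lists different culture media for MDSCs and MSCs. It describes no group given TGF-β1 in MDSC medium that had held no cells. An effect of the supernatant and an effect of its medium therefore cannot be told apart.

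MSCs can form bone, cartilage and fat. In bone formation RUNX2 and then SP7 (osterix) act as transcription factors, DLX5 acts upstream or beside them, ALPL (tissue-nonspecific alkaline phosphatase) frees phosphate for mineral, and BGLAP (osteocalcin) and IBSP (bone sialoprotein) are proteins of mature osteoblasts. In cartilage SOX9 drives the program, and ACAN (aggrecan) and COMP (cartilage oligomeric matrix protein) are parts of the matrix. TNFRSF11B (osteoprotegerin) is the secreted decoy receptor that keeps the ligand RANKL from its receptor on osteoclast precursors.

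TGF-β1 moved the members in different directions. Alpl RNA fell 14.4-fold, Runx2 rose 1.6-fold, Tnfrsf11b rose from near 0 to 1.52 FPKM, and Acan rose from 0.136 to 0.805 FPKM, whereas Sox9 did not pass the test. FPKM is the read fragment count scaled to transcript length and library depth. Alpl was higher with either supernatant than with TGF-β1 alone, at a level still 5.1-fold (M-MDSC) and 5.25-fold (G-MDSC) below untreated cells, and no other member passed the test there. The same libraries held kidney tubule transcripts, at 33.6 to 105 against at most 0.653 FPKM in the others, whose part in the Alpl difference was not tested. Among the members, the genes of mature osteoblasts, Bglap and Ibsp, stayed at 11 counts or fewer in every library, and Dlx5 had none in any.

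The promoters below are shown, among the members that had an entry, for Alpl (with both of its listed starts) and Acan, whose RNA fell and rose with TGF-β1, and for Bglap, a textbook target of RUNX2 that stayed near 0 while Runx2 rose. Each is the 250 bases before a RefSeq transcript start in GRCm38.p6, written along the gene's strand, and 5 of the 10 members had an entry. Capitals mark motifs that were searched on both strands. These were the core bound by RUNX factors, with the letters TGTGGT. A second was the GC box bound by SP1-like factors, with the letters GGGCGG. The last was the TATA box, searched as TATAAA.
Alpl, outer start, chr4:137796385-137796634, minus strand: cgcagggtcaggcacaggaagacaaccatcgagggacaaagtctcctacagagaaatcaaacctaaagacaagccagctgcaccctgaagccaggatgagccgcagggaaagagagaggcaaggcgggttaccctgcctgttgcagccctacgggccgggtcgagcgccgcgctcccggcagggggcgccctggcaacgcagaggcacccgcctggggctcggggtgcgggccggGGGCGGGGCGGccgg
Alpl, inner start, chr4:137766476-137766725, minus strand: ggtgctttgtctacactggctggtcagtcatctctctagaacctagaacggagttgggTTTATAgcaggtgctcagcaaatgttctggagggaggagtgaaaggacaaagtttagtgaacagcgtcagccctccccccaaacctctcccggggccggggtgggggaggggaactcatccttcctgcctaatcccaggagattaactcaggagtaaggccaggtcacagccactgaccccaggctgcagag
Acan, chr7:79052976-79053225, plus strand: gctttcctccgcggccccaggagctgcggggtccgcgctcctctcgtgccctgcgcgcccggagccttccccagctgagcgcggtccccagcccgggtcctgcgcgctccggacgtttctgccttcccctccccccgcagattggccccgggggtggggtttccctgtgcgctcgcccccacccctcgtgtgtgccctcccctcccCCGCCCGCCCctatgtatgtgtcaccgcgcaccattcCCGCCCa
Bglap, chr3:88384467-88384716, minus strand: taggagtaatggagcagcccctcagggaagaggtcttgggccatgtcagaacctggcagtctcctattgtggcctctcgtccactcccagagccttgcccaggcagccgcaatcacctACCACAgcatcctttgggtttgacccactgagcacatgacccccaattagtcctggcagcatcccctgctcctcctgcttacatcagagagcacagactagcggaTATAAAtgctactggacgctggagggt

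The outer Alpl promoter held 2 overlapping GC boxes, 15 and 10 bases before the start, and the inner one held a TATA box 192 bases before it. The Acan promoter held 3 GC boxes, 44, 40 and 7 bases before the start, of which the first and second overlap. The Bglap promoter held 1 RUNX core 132 bases before the start, 1 TATA box 27 bases before it, and 1 SMAD element (CAGAC, not in capitals) 39 bases before it. The same windows of Runx2 and Ibsp, not printed, held 1 RUNX core 80 bases before the start and 1 TATA box 28 bases before it, respectively. Among 32851 promoters of this length 14.0% held the RUNX core, 42.2% the SMAD element, 32.7% a GC box, 12.4% TATAAA and 6.75% the AP-1 motif TGANTCA, which no member's window held. These are matches of letters, and the gene-level counts do not tell which Alpl start was used. The RefSeq starts of Acan (79053226) and Bglap (88384466) also differ from the gene starts in the annotation of the counts (79053483 and 88384464).

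The libraries held between 73977669 and 84565450 counts. The MSC label was checked with 9 surface marker genes, of which 8 passed the filter on low values. The 9 summed to 717 to 730 FPKM in untreated cells, 599 to 615 with TGF-β1, 661 to 685 with M-MDSC sup and 638 to 664 with G-MDSC sup. In untreated cells Itgb1, Ly6a and Cd9 made up most of the sum, at means of 254, 245 and 134 FPKM. Thy1, Eng and Nt5e were at 4.49, 0.766 and 0.407 FPKM there, so the sum says little about them. With TGF-β1 all 8 passed, 4 higher (Itgb1, Pdgfrb, Cd44 and Nt5e) and 4 lower (Ly6a, Pdgfra, Thy1 and Cd9). Nt5e was in the test only through groups given TGF-β1, so this count is not read against the 34.0% of all genes that passed. Ly6a (Sca-1) moved most, from 245 to 16.2 FPKM. All 4 genes of a TGF-β1 response check were higher with TGF-β1, as were 16.1% of all genes, Ccn2 by 2.53 on the log2 scale. The libraries with MDSC sup stood apart from the others in 12 kidney tubule markers, whose summed level was 0.436 to 0.653 FPKM without and 33.6 to 105 FPKM with supernatant. Where this bears on a member its values are given there.

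A gene was tested where it reached 1 FPKM in at least 3 of the 12 libraries, which 12016 genes and 4 of the 10 members did (Runx2, Alpl, Sox9 and Tnfrsf11b). All tests were edgeR's two-sided quasi-likelihood F test with p-values adjusted by Benjamini-Hochberg over the genes tested, and a gene passed with an adjusted p under 0.05. With TGF-β1 against untreated cells 3 of the 4 passed, 2 higher and 1 lower, where 34.0% of all genes passed, 16.1% higher and 17.9% lower. Tnfrsf11b, among the higher members, had reached the filter only through the groups given TGF-β1, so the count is not read against that share. In the same 3 members the groups did not overlap. Among all genes 46.7% showed this, and for the same reason the count is not read against that share. With M-MDSC sup against TGF-β1 1 passed, higher, against 4.78% of all genes (2.83% higher), and with G-MDSC sup against TGF-β1 1 passed, higher, against 5.56% (3.10% higher). All 3 libraries with supernatant lay above all TGF-β1 libraries in 2 of the 4 members with M-MDSC sup (13.4% of all genes) and in 2 of the 4 with G-MDSC sup (13.2%). These last comparisons share the TGF-β1 libraries and so are not independent. Between M-MDSC sup and G-MDSC sup none of the 4 passed, and 0 had an unadjusted p under 0.05. There edgeR passed 0.125% of all genes, 1 member had all M-MDSC above all G-MDSC libraries (5.97% of all genes), and DESeq2 and limma passed none of the members either. Under the study's own rule, over 2-fold with an unadjusted p under 0.05, the 4 comparisons called 2, 1, 1 and 0 members, against 6.74%, 2.18%, 2.17% and 0.549% of all genes. The first of these counts holds Tnfrsf11b too and is not read against its share. Nothing in the sources says that the libraries of a group came from separate cultures, so p-values measure only the spread between these libraries, which may be technical.

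**Figure D1:**
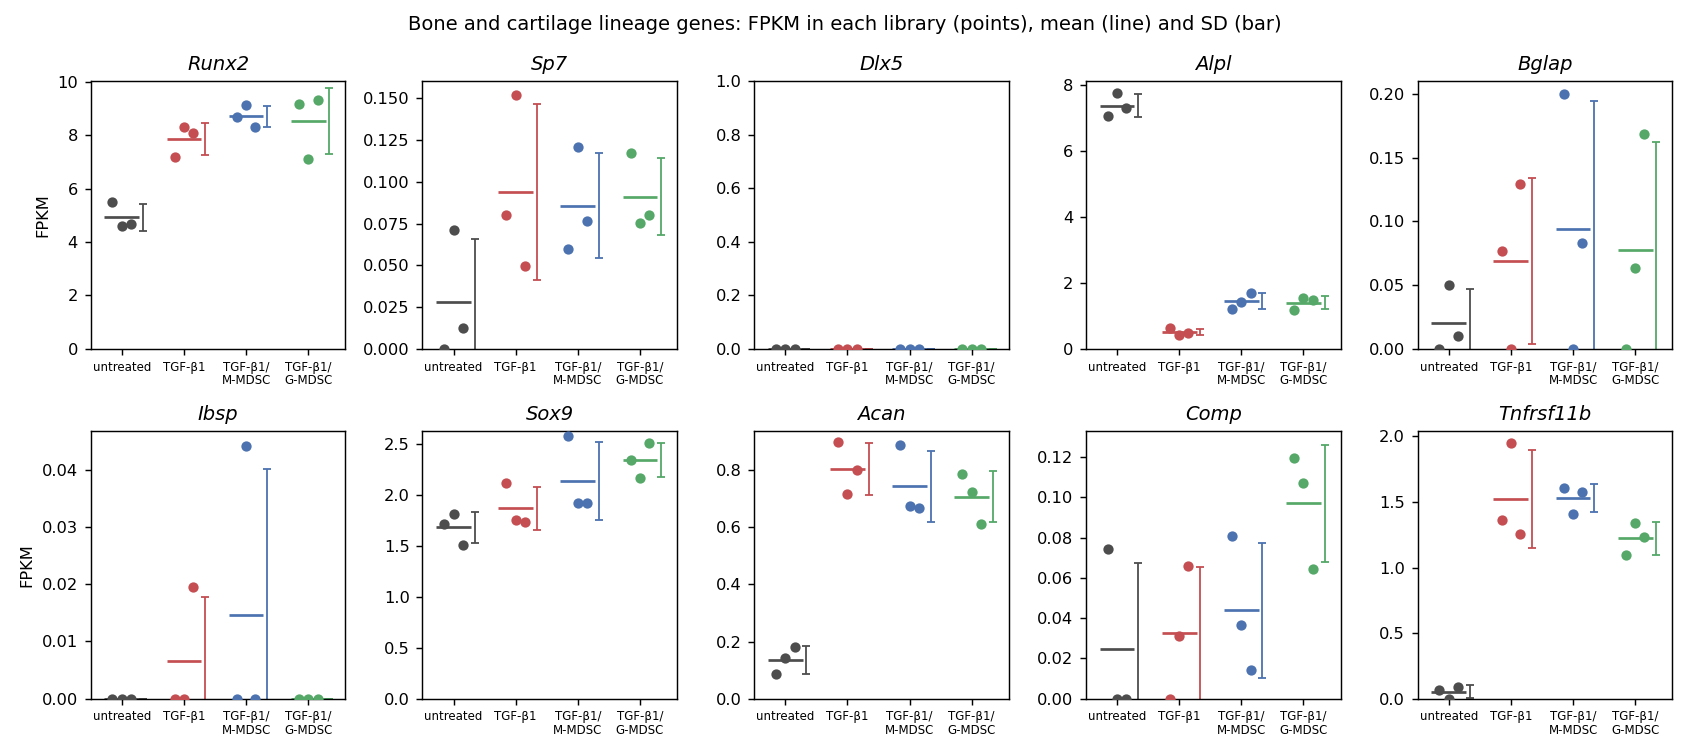
FPKM of the 10 members in the 3 libraries of each group (points), with the mean (line) and SD (bar beside it), each panel on its own linear axis from 0. Alpl is highest in untreated cells, Runx2, Acan and Tnfrsf11b are lowest there, and the panels of Sp7, Bglap, Ibsp and Comp stay at or under 0.2 FPKM while Dlx5 is at 0.

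Runx2 (ENSMUSG00000039153, GRCm38 chr17:44495987-44814797, minus strand) was the most abundant member in every group with TGF-β1. Its level in the untreated libraries was 5.49, 4.60 and 4.67 FPKM, and with TGF-β1 it was 7.16, 8.30 and 8.07 FPKM. Every TGF-β1 library lay above every untreated one. The log2 fold change was 0.73 (SE 0.110, 95% interval 0.488 to 0.974, adjusted p = 3.93e-04, n = 3 per group, edgeR), which is under a doubling. The level was 8.67, 9.11 and 8.30 FPKM with M-MDSC sup and 9.15, 7.09 and 9.31 FPKM with G-MDSC sup. The M-MDSC libraries lay just above the TGF-β1 libraries and the G-MDSC libraries overlapped them. The difference from TGF-β1 was 0.13 on the log2 scale with M-MDSC sup (interval -0.116 to 0.367, adjusted p = 0.625, edgeR) and 0.09 with G-MDSC sup (interval -0.149 to 0.334, adjusted p = 0.762, edgeR). Runx2 overlaps Supt3 on the opposite strand over 37646 bases. Supt3 had 2253 to 2722 counts in the 12 libraries, with 2253 to 2665 in untreated and 2390 to 2647 in TGF-β1 libraries, and the library kit marks strand but the setting used in counting is not given in the sources used here.

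Sp7 and Dlx5, the other bone transcription factors among the members, were scarce. Sp7 (ENSMUSG00000060284, chr15:102356606-102366968, minus strand) had 0, 23 and 4 counts in untreated cells, 25, 48 and 16 with TGF-β1, 17, 34 and 23 with M-MDSC sup, and 38, 23 and 25 with G-MDSC sup. The untreated and TGF-β1 libraries overlapped. Without the filter on low values its log2 fold change with TGF-β1 was 1.79 (interval -0.282 to 3.864, adjusted p = 0.302, edgeR), an interval that holds both no change and a large rise. Dlx5 (ENSMUSG00000029755, chr6:6877805-6882085, minus strand) had 0 counts in all 12 libraries. At these depths 0 counts allow up to 3 counts, which is 0.0355 to 0.0406 CPM (counts scaled to the library total). This bound considers counting error alone and takes each count as 1 fragment. Since 44.3% of counts from 1 to 12 are 4, 8 or 12, it may be too low.

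The other transcription factors of bone formation were taken as a list of 14 genes, of which 9 were tested. With TGF-β1, 4 of the 9 passed, 3 higher and 1 lower, near the 34.0% of all genes that passed, and the median log2 fold change was 0.18 against 0.00 over all genes. Runx1, a RUNX family member best known from blood formation, rose from 1.72 ± 0.168 to 4.46 ± 0.197 FPKM (SD, n = 3), a log2 fold change of 1.44 (adjusted p = 1.74e-07, edgeR). Runx3 rose by 0.55 (adjusted p = 0.00374) and Twist1, which restrains RUNX2 in early bone cells, fell by 0.42 (adjusted p = 4.07e-05), both on the log2 scale by edgeR. Cbfb, the partner subunit of all RUNX proteins, was the remaining gene to pass. None of the 9 passed with either supernatant against TGF-β1, where 4.78% (M-MDSC) and 5.56% (G-MDSC) of all genes did, so none is near those shares.

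Alpl (ENSMUSG00000028766, chr4:137741733-137796384, minus strand) changed most in the opposite direction to Runx2. It stood at 7.05, 7.75 and 7.31 FPKM in untreated cells and at 0.619, 0.434 and 0.486 FPKM with TGF-β1. The untreated libraries held 2432 to 2914 counts and the TGF-β1 libraries 160 to 225, so the groups were far apart and both were counted well. The log2 fold change was -3.78 (SE 0.172, interval -4.165 to -3.400, adjusted p = 4.98e-08, n = 3 per group, edgeR). From the most abundant of the 10 members in untreated cells it became the fifth with TGF-β1, under Runx2, Sox9, Tnfrsf11b and Acan on the FPKM scale. In bulk RNA, fewer cells that express a gene and less RNA per cell cannot be told apart, here and for the other members.

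With supernatant Alpl was higher than with TGF-β1 alone. The level was 1.22, 1.41 and 1.70 FPKM with M-MDSC sup and 1.18, 1.54 and 1.49 FPKM with G-MDSC sup. All 6 of these libraries lay above all TGF-β1 libraries and below all untreated ones, and the M-MDSC and G-MDSC libraries overlapped. Against TGF-β1 the rise was 1.47 on the log2 scale with M-MDSC sup (SE 0.161, interval 1.111 to 1.826, adjusted p = 2.71e-04, edgeR), or 2.82-fold in mean FPKM. With G-MDSC sup it was 1.42 (SE 0.161, interval 1.065 to 1.779, adjusted p = 3.63e-04, edgeR), or 2.74-fold. The difference between the supernatants was 0.05 on the log2 scale (interval -0.298 to 0.391, adjusted p = 0.993, edgeR). Compared with untreated cells, a contrast added after the values were seen, Alpl differed by -2.31 on the log2 scale with M-MDSC sup (adjusted p = 1.22e-06, edgeR) and by -2.36 with G-MDSC sup (adjusted p = 1.13e-06, edgeR).

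**Figure D2:**
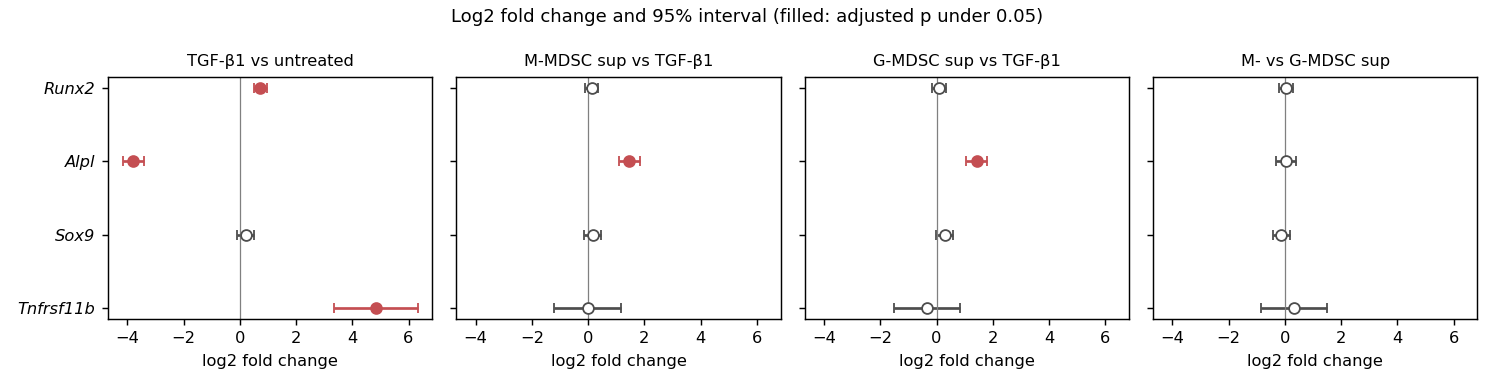
Log2 fold change (point) with its 95% interval (bar) for the 4 tested members in 4 comparisons of 3 against 3 libraries, where filled points have an adjusted p under 0.05 by edgeR. With TGF-β1 Runx2 and Tnfrsf11b lie right of 0 and Alpl left of it, with either supernatant Alpl is the one filled point, and between the supernatants all intervals span 0.

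Alkaline phosphatase is also made in the kidney tubule, and the rise of Alpl with supernatant went with kidney tubule transcripts. The 12 kidney markers summed to 33.6, 43.3 and 105 FPKM in M-MDSC replicates 1, 2 and 3, whose Alpl was 1.22, 1.41 and 1.70 FPKM, and to 70.0, 81.3 and 81.4 FPKM in G-MDSC replicates 1, 2 and 3, whose Alpl was 1.18, 1.54 and 1.49 FPKM. Within M-MDSC sup the order of the libraries was the same for both. Within G-MDSC sup replicate 1 was lowest in both, and replicates 2 and 3 had near-equal kidney sums (81.3 and 81.4 FPKM). Most of the sum was Kap and Gpx3, at means of 30.5 and 24.2 FPKM with M-MDSC sup and 45.2 and 25 FPKM with G-MDSC sup. G-MDSC replicate 1 had a higher kidney sum than M-MDSC replicates 1 and 2 and less Alpl than either. Kap, Umod, Slc34a1, Aqp2, Slc22a6 and Cdh16 had 0 counts in every untreated and TGF-β1 library. Cubn, which made up most of the sum in those libraries, was at a mean of 0.394 FPKM in untreated cells, 0.454 with TGF-β1, 0.386 with M-MDSC sup and 0.432 with G-MDSC sup. The 5 kidney markers that reached the filter did so only through the libraries with supernatant, so no count of them is given. Their part in the rise was not tested. Without the M-MDSC library that had 105 FPKM of kidney markers, the rise of Alpl was 1.34 on the log2 scale (adjusted p = 0.00103, edgeR). The M-MDSC libraries kept in that fit had 33.6 and 43.3 FPKM of these markers, so the fit does not test their part. The fall of Alpl with TGF-β1 involved libraries with 0.436 to 0.653 FPKM of kidney markers.

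The summed level of 10 myeloid markers was 6.20 to 7.10 FPKM in untreated cells, 2.27 to 3.18 with TGF-β1, 4.32 to 6.77 with M-MDSC sup and 5.63 to 8.44 with G-MDSC sup. The genes behind the sum differed between groups. Ly6g and Ly6c2 had mean levels of 1.83 and 1.71 FPKM in untreated cells, through which alone they reached the filter, 0.0681 and 0.045 FPKM with TGF-β1, and 0.0619 to 0.211 FPKM with supernatant. Csf1r, the receptor for Csf1, reached the filter only through groups given TGF-β1, at 0.631 FPKM in untreated cells, 1.03 with TGF-β1, 1.08 with M-MDSC sup and 1.19 with G-MDSC sup. Cd68 was at 2.38, 1.48, 2.35 and 2.07 FPKM in untreated, TGF-β1, M-MDSC and G-MDSC libraries, and S100a9 at 0, 0, 0.576 and 1.13 FPKM. In counts S100a9 had 43, 12 and 23 with M-MDSC sup and 0, 0 and 160 with G-MDSC sup, so its G-MDSC mean came from 1 library. Lyz2 had 0 to 23 counts in untreated and TGF-β1 libraries and 71 to 262 with supernatant, through which it reached the filter. Mpo had 0 counts in all libraries and Ptprc (CD45) had 0 to 26. The part of myeloid RNA in the rise of Alpl was not tested.

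**Figure D3:**
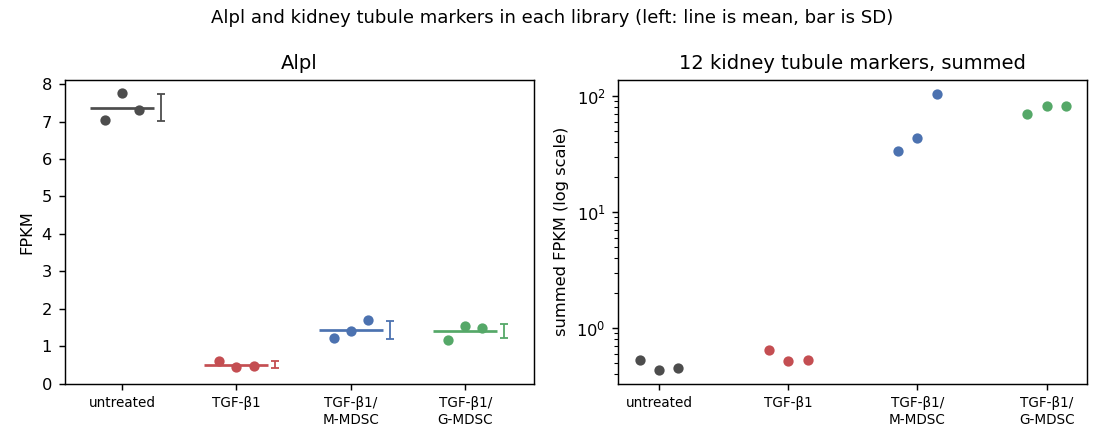
Alpl FPKM on a linear axis (left, line and bar are mean and SD) and the summed FPKM of 12 kidney tubule markers on a log axis (right), 1 point per library and 3 per group. Alpl is between 1.18 and 1.70 FPKM in the 6 libraries with supernatant, and the kidney sum there is 33.6 to 105 FPKM against at most 0.653 FPKM in the others.

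Bglap (ENSMUSG00000074483, chr3:88383501-88384464, minus strand), with the RUNX core printed above, had 0, 3 and 1 counts in untreated cells, 5, 0 and 8 with TGF-β1, 11, 0 and 5 with M-MDSC sup, and 0, 4 and 11 with G-MDSC sup. All groups overlapped, and without the filter the log2 fold change with TGF-β1 was 1.70 with an interval from -2.412 to 5.801 (adjusted p = 0.665, edgeR). Bglap has near-identical neighbours, Bglap2 and Bglap3, between which reads can be split, so its counts are uncertain: Bglap2 had 0 counts in every library and Bglap3 at most 19. Ibsp (ENSMUSG00000029306, chr5:104299171-104311469, plus strand) had 4 counts in 1 TGF-β1 library, 8 in 1 M-MDSC library and 0 in the other libraries. Differences in either gene were not detectable at this depth.

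The matrix and mineral genes around these members were taken as a list of 19, of which 10 were tested. With TGF-β1, 8 of the 10 passed, 5 higher and 3 lower. Fam20c, among the lower, reached the filter only through the untreated libraries, so this count is not read against the share of all genes. The largest falls were those of Mgp (matrix Gla protein, an inhibitor of calcification), from 138 ± 6.53 to 16.4 ± 2.46 FPKM, and Ogn (osteoglycin), from 37.3 ± 5.27 to 7.24 ± 1.01 FPKM (SD, n = 3). Their log2 fold changes were -3.02 (adjusted p = 8.79e-08, edgeR) and -2.31 (adjusted p = 2.05e-06, edgeR). Enpp1, which makes the mineral inhibitor pyrophosphate that alkaline phosphatase breaks down, rose from 5.36 ± 0.209 to 17.6 ± 0.345 FPKM (log2 fold change 1.77, adjusted p = 5.15e-09, edgeR). Ank, which takes part in the export of pyrophosphate, rose by 1.20 (adjusted p = 5.15e-09), and the phosphate transporter gene Slc20a1 rose by 1.47 (adjusted p = 9.40e-08), both on the log2 scale by edgeR and named after their values were seen. So was Dmp1, under the filter, with 7, 15 and 10 counts in untreated cells and 96, 118 and 118 with TGF-β1. It had 30, 73 and 53 counts with M-MDSC sup and 62, 65 and 31 with G-MDSC sup. Omd and Smpd3, also under the filter, had lower means with TGF-β1, from 0.606 to 0.173 and from 0.230 to 0.0804 FPKM.

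Against TGF-β1, 3 of the 10 were lower with M-MDSC sup (4.78% of all genes passed): Enpp1 fell by 0.29, Sparc (osteonectin) by 0.28 and Ank by 0.19 on the log2 scale (adjusted p = 0.017, 0.00492 and 0.0218, edgeR). With G-MDSC sup, where 5.56% of all genes passed, Sparc fell by 0.36 and Ank by 0.20, and Spp1 (osteopontin) rose by 0.17 (adjusted p = 8.96e-04, 0.0125 and 0.042, edgeR). Ogn had a larger difference with G-MDSC sup, -0.65 on the log2 scale (7.24 to 4.71 FPKM, without overlap), just short of the threshold (adjusted p = 0.0501, edgeR), and -0.24 with M-MDSC sup (adjusted p = 0.511, edgeR). Osteopontin is made in kidney tubules too, and the part of the kidney transcripts described above in its rise was not tested. For Enpp1 with G-MDSC sup the value was -0.17 (adjusted p = 0.15, edgeR). Whether the supernatants differ there was tested directly, with 0 of the 10 genes passing, where 0.125% of all genes did.

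Sox9 (ENSMUSG00000000567, chr11:112782224-112787760, plus strand) was at 1.72, 1.81 and 1.51 FPKM in untreated cells, 2.11, 1.76 and 1.73 with TGF-β1, 2.58, 1.92 and 1.92 with M-MDSC sup, and 2.34, 2.17 and 2.51 with G-MDSC sup. The untreated and TGF-β1 libraries overlapped, and so did those of TGF-β1 and M-MDSC sup, whereas all G-MDSC libraries lay above all TGF-β1 libraries. The log2 difference with TGF-β1 was 0.21 (interval -0.094 to 0.511, adjusted p = 0.282, edgeR). With G-MDSC sup against TGF-β1 it was 0.30 (interval -0.002 to 0.602, adjusted p = 0.294, edgeR), and with M-MDSC sup it was 0.17 (interval -0.130 to 0.474, adjusted p = 0.585, edgeR), or 0.013 without M-MDSC replicate 1. Against untreated cells, a contrast added after the values were seen, Sox9 was higher by 0.51 with G-MDSC sup (interval 0.206 to 0.811, adjusted p = 0.0143, edgeR) and by 0.38 with M-MDSC sup (interval 0.078 to 0.683, adjusted p = 0.0522, edgeR). In that contrast 34.8% of all genes passed with G-MDSC sup and 35.2% with M-MDSC sup. The supernatants differed from each other by -0.13 (M-MDSC minus G-MDSC, interval -0.430 to 0.173, adjusted p = 0.968, edgeR).

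Acan (ENSMUSG00000030607, chr7:79053483-79115099, plus strand) had a highest value of 0.898 FPKM and so lay under the filter, though its long transcript gave it 55 to 602 counts. It was at 0.0854, 0.142 and 0.182 FPKM in untreated cells and 0.898, 0.716 and 0.800 FPKM with TGF-β1. The groups did not overlap. In the fit without the filter, where 14.6% of 28622 genes passed, the log2 fold change was 2.62 (SE 0.246, interval 2.075 to 3.157, adjusted p = 1.68e-05, edgeR). With M-MDSC sup Acan was at 0.888, 0.674 and 0.667 FPKM and with G-MDSC sup at 0.788, 0.723 and 0.610 FPKM, all within or near the TGF-β1 range. Against TGF-β1 the differences in that fit were -0.13 with M-MDSC sup (interval -0.626 to 0.375, adjusted p = 0.949, edgeR) and -0.20 with G-MDSC sup (interval -0.704 to 0.297, adjusted p = 0.808, edgeR).

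Comp (ENSMUSG00000031849, chr8:70373558-70382066, plus strand) had 19, 0 and 0 counts in untreated cells, 0, 9 and 18 with TGF-β1, 20, 9 and 4 with M-MDSC sup, and 34, 28 and 18 with G-MDSC sup. No comparison of Comp passed without the filter, and with TGF-β1 its log2 fold change was 0.51 (interval -2.801 to 3.815, adjusted p = 0.972, edgeR). The wide interval leaves differences of several-fold undetectable at these counts.

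Few other cartilage genes were expressed. Of 8 cartilage transcription factors 2 were tested, and 1, Foxc1, fell with TGF-β1 by 0.51 on the log2 scale (adjusted p = 8.93e-04, edgeR). Among all genes 34.0% passed there and 17.9% were lower, so a count this small says nothing about the list. Of 24 cartilage matrix genes 4 were tested, and 3 passed with TGF-β1, 2 higher and 1 lower. Fmod, among the higher, reached the filter only through groups given TGF-β1, so this count is not read against the share of all genes. Fmod (fibromodulin), a proteoglycan that binds collagen and is also made by tendon and fibroblasts, rose from 0.504 ± 0.148 to 5.75 ± 0.614 FPKM (SD, n = 3), a log2 fold change of 3.56 (adjusted p = 3.57e-07, edgeR). Col11a1, a chain of the minor fibrillar collagen of cartilage, rose by 0.60 (adjusted p = 3.67e-04), and Prelp, a related small proteoglycan, fell by 0.93 (adjusted p = 1.98e-04), both by edgeR. Col2a1, the main cartilage collagen, did not reach the filter.

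Against TGF-β1, 3 of the 4 tested cartilage matrix genes were lower with each supernatant, where 4.78% (M-MDSC) and 5.56% (G-MDSC) of all genes passed. With M-MDSC sup these were Fmod by 0.80, Matn2 by 0.47 and Col11a1 by 0.41 on the log2 scale (adjusted p = 0.0363, 0.0307 and 0.0233, edgeR). With G-MDSC sup Fmod was lower by 0.93, Col11a1 by 0.53 and Matn2 by 0.50 (adjusted p = 0.0156, 0.00466 and 0.0201, edgeR). The fourth, Prelp, differed by 0.05 with each. Under the filter the directions were mixed. Prg4 (lubricin) and Col9a3 had mean levels of 0.0971 and 0.123 FPKM in untreated cells and 0.628 and 0.152 with TGF-β1. They were at 0.795 and 0.250 with M-MDSC sup, and 0.948 and 0.224 with G-MDSC sup. Col11a2, Cilp and Matn3 went the other way with supernatant, from 0.312, 0.209 and 0.115 FPKM with TGF-β1. They were at 0.230, 0.163 and 0.0343 with M-MDSC sup, and 0.258, 0.184 and 0.0602 with G-MDSC sup. Between the supernatants 0 of the 4 passed, where 0.125% of all genes did.

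**Figure D4:**
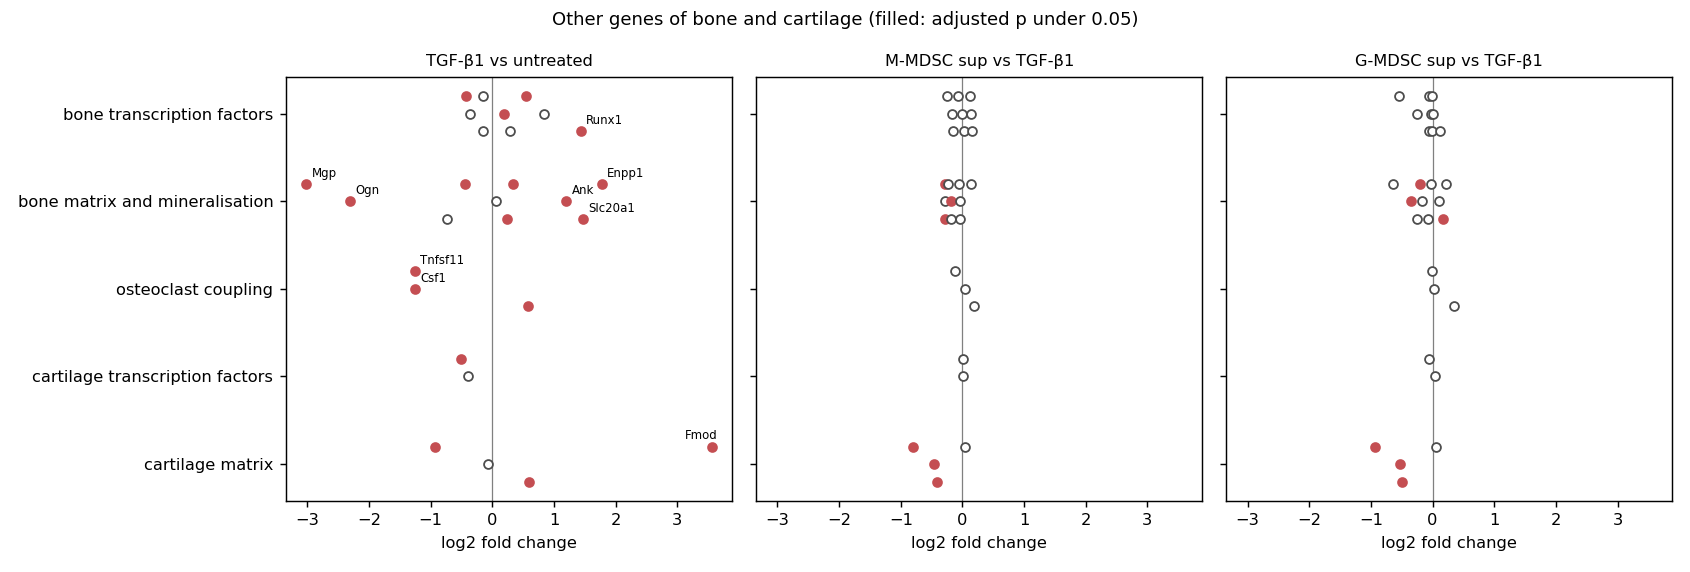
Log2 fold change of every tested gene in 5 lists of bone and cartilage genes, for TGF-β1 against untreated cells and for each supernatant against TGF-β1, where filled points have an adjusted p under 0.05 by edgeR and labels name those beyond 1 in size. With TGF-β1 genes of bone matrix spread from -3.02 (Mgp) to 1.77 (Enpp1), and with supernatant the filled points lie between -0.93 and 0.17.

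Tnfrsf11b (ENSMUSG00000063727, chr15:54250619-54278484, minus strand), which encodes osteoprotegerin, was close to absent from untreated cells, with 17, 0 and 24 counts, or 0.068, 0 and 0.0911 FPKM. With TGF-β1 it had 345, 501 and 317 counts, or 1.36, 1.95 and 1.25 FPKM. The groups did not overlap. The log2 fold change was 4.84 (SE 0.666, interval 3.367 to 6.322, adjusted p = 2.12e-04, n = 3 per group, edgeR), and the gene passed the filter only through the groups that received TGF-β1. The size depended on the untreated libraries: it was 4.245 without the untreated library at 0 counts and 5.506 without the one at 24 counts, and 1.25 on the scale of log2(FPKM + 1), which understates changes of low genes.

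With M-MDSC sup Tnfrsf11b was at 1.60, 1.40 and 1.58 FPKM and with G-MDSC sup at 1.09, 1.34 and 1.23 FPKM. Both overlapped the TGF-β1 libraries, and every M-MDSC library lay above every G-MDSC library. Against TGF-β1 the log2 differences were -0.02 (interval -1.198 to 1.164, adjusted p = 0.994, edgeR) and -0.34 (interval -1.527 to 0.840, adjusted p = 0.831, edgeR). Between the supernatants the difference was 0.33 (M-MDSC minus G-MDSC, interval -0.858 to 1.510, adjusted p = 0.977, edgeR).

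Osteoprotegerin is best read beside the ligand it binds. Tnfsf11 (RANKL) was at 3.10, 2.71 and 3.04 FPKM in untreated cells and at 1.18, 1.16 and 1.22 FPKM with TGF-β1. It fell by 1.26 on the log2 scale (SE 0.153, adjusted p = 8.50e-05, edgeR), without overlap. In FPKM, Tnfsf11 exceeded Tnfrsf11b in every untreated library, and Tnfrsf11b exceeded Tnfsf11 in every TGF-β1 library. With M-MDSC sup Tnfsf11 was at 1.27, 1.28 and 1.56 FPKM and stayed below Tnfrsf11b in all 3 libraries, while with G-MDSC sup it was at 1.19, 1.77 and 1.64 FPKM and lay above Tnfrsf11b in all 3. Neither gene differed between the supernatants by the test, with an adjusted p of 0.968 for Tnfsf11 by edgeR, and the order of the pair was not tested. In counts, not scaled to length, Tnfsf11 had 252, 348 and 331 and Tnfrsf11b 291, 332 and 313 in the G-MDSC libraries, so the order of the pair was the other way round in replicate 1 and the same in the other two.

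**Figure D5:**
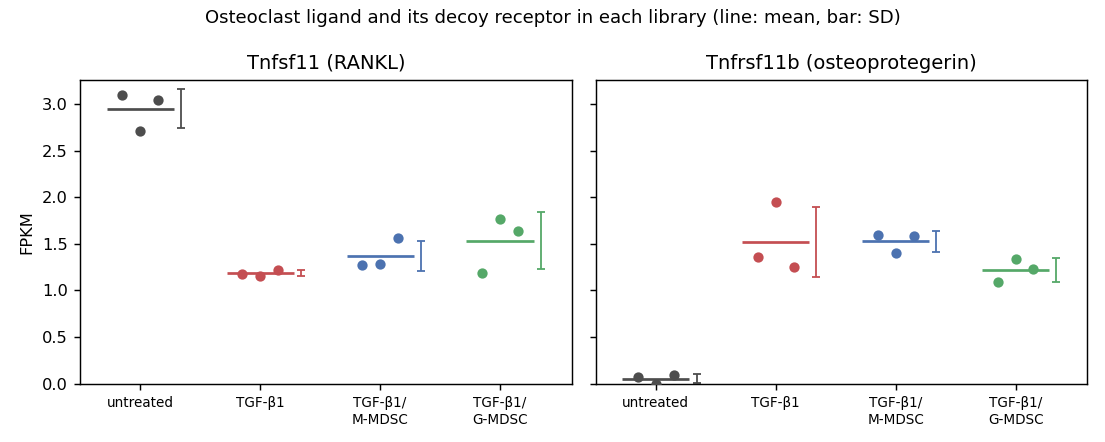
FPKM of Tnfsf11 (left) and Tnfrsf11b (right) on a shared linear axis, 1 point per library and 3 per group, with the mean (line) and SD (bar). Tnfsf11 is 2.71 to 3.10 FPKM in untreated cells and at most 1.77 FPKM in the other groups, and Tnfrsf11b is at most 0.0911 FPKM in untreated cells and 1.09 to 1.95 FPKM in the others.

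The list of osteoclast-coupling genes held 5, of which 3 were tested, and all 3, Tnfsf11 among them, passed with TGF-β1, where 34.0% of all genes did. Csf1, the growth factor of macrophages and osteoclast precursors, fell from 76.3 ± 0.624 to 30.9 ± 2.08 FPKM (SD, n = 3), by 1.25 on the log2 scale (adjusted p = 2.24e-07, edgeR). Lgr4, a receptor that also binds RANKL, rose by 0.58 (adjusted p = 0.004, edgeR). With either supernatant 0 of the 3 tested genes passed against TGF-β1, where 4.78% (M-MDSC) and 5.56% (G-MDSC) of all genes did. Pth1r, the parathyroid hormone receptor of osteoblasts and kidney tubules, lay under the filter with 15 to 22 counts in untreated cells, 8 to 16 with TGF-β1, 17, 67 and 105 with M-MDSC sup and 119, 88 and 118 with G-MDSC sup, and the part of kidney transcripts in these counts was not tested. The 8 osteoclast markers summed to 0.485 to 0.59 FPKM in untreated cells, 1.10 to 1.46 with TGF-β1, 1.14 to 1.57 with M-MDSC sup and 2.50 to 2.92 with G-MDSC sup. In the groups given TGF-β1 most of this was Mmp9, a gelatinase also made by other cells, at 0.214, 1.13, 1.17 and 2.33 FPKM in the groups in that order, which reached the filter only through groups given TGF-β1. It was higher with G-MDSC sup than with TGF-β1 by 1.01 on the log2 scale (adjusted p = 0.0306, edgeR), while Dcstamp, which osteoclasts need to fuse, had 0 counts in all libraries.

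The fat lineage was read beside bone and cartilage. Of 7 adipocyte markers 3 were tested, and 2 fell with TGF-β1 (17.9% of all genes were lower), the adipocyte regulator Pparg by 1.74 and the lipase gene Lpl by 1.73 on the log2 scale by edgeR. With supernatant against TGF-β1, where 2.83% (M-MDSC) and 3.10% (G-MDSC) of all genes were higher, Lpl was higher, by 0.49 with M-MDSC sup (adjusted p = 0.00341, edgeR) and 0.40 with G-MDSC sup (adjusted p = 0.0103, edgeR), whereas Pparg differed by 0.04 and 0.09 (adjusted p = 0.891 and 0.72, edgeR). Adipoq had 0 counts in all libraries. Of 4 endothelial markers 0 reached the filter, and their summed level was 0.325 to 0.589 FPKM.

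The genes whose log2(FPKM + 1) followed each changed member most closely were named by Pearson's r over the 12 libraries, as a description, since the 12 points share 4 treatments. Alpl was followed by Lpl (r = 0.996), at 10.6 FPKM in untreated cells, 3.07 with TGF-β1, 4.38 with M-MDSC sup and 4.13 with G-MDSC sup, and by Pgr, the progesterone receptor gene (r = 0.994), at 5.23, 0.695, 1.37 and 1.3 FPKM. In both the mean level was lowest with TGF-β1 alone and highest in untreated cells. Runx2 was followed by Gm39090 (r = 0.980) and Ykt6 (r = 0.971), a membrane-fusion gene that went from 44.7 to 53.6 FPKM with TGF-β1. Tnfrsf11b was followed by Spcs3 (r = 0.983), a signal peptidase subunit gene, and Creb3l1 (r = 0.982), which encodes a transcription factor of the secretory pathway and went from 4.81 to 29.2 FPKM with TGF-β1, 28.9 with M-MDSC sup and 26.9 with G-MDSC sup.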

How the data were processed

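The deposited table holds, per library, raw counts per gene and FPKM that the authors calculated. Per the labels' processing notes and the paper, reads were trimmed with cutadapt 1.9, aligned to GRCm38 with HISAT2 2.0.4 and assembled with StringTie 1.3.4d. The counting tool is not given in the sources used here. In the FPKM columns 0.0001 stands for a count of 0 and was set to 0, and 44.3% of counts from 1 to 12 are 4, 8 or 12, so an alternative divided counts by 4.

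Library sizes were adjusted with TMM factors of 0.978 to 1.03. A single model held the 4 groups (edgeR 4.0.16, R 4.3.3). Libraries of a group differed by 9.42 to 18.11 times counting variance. Coordinates are those of the table, and 94.2% of 55141 shared gene IDs have the same start and end in GENCODE M21. On simulated data for TGF-β1 against untreated (12016 genes, 200 changed) edgeR recovered 181 with 7 false calls.

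Members and gene lists were chosen with earlier results of these data known. The text names all members, up to 3 passing genes without overlap per list and comparison with the largest change, and the 2 genes most correlated with each changed member. Alternatives were median-ratio scaling, DESeq2 1.42.0, limma 3.58.1, other filters, 2 groups only, a replicate block, each library left out, and the study's call rule.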

Additional observations from a re-analysis of the deposited data

How the results depend on the processing

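The count of passing members with TGF-β1 against untreated cells ran from 2 under the study's call rule (over 2-fold, unadjusted p under 0.05, which drops Runx2) to 4 without the filter or with edgeR's own filter, both of which add Acan. It was 1 with each supernatant against TGF-β1 and 0 between supernatants under all alternatives run, and leaving out each library in turn gave 3 to 3, 1 to 1, 1 to 1 and 0 to 0. In the 4 planned comparisons no call of the 4 tested members by adjusted p changed under the alternatives run, which did not cover the contrasts of supernatant with untreated cells, and 328 single-gene values kept their direction. The other 8 values, none past the threshold, changed sign. Between the supernatants Runx2 ran from -0.084 to 0.103 and Alpl from -0.086 to 0.153 with 1 library left out: Runx2 became -0.084 without TGFb1_G replicate 2 and -0.002 without TGFb1_M replicate 2, and Alpl became -0.063 without TGFb1_G replicate 1 and -0.086 without TGFb1_M replicate 3. For M-MDSC sup against TGF-β1, Tnfrsf11b became 0.014 and 0.029 with limma on log2(FPKM + 1) and log2(FPKM + 0.1), and ran from -0.123 to 0.202 with 1 library left out, being 0.202 without TGFb1 replicate 2 and 0.039 without TGFb1_M replicate 2. On log2(FPKM + 1) the fall of Alpl with TGF-β1 was -2.469, and its rise was 0.690 with M-MDSC sup and 0.667 with G-MDSC sup. Among differences that did not pass, Runx2 with G-MDSC sup against TGF-β1 ran from 0.023 to 0.210 and Sox9 with M-MDSC sup from 0.013 to 0.269 over all alternatives. The causes were not tested.

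Libraries with the same replicate number did not deviate together (mean r = -0.00447 over 18 pairs, 0 of them over 0.1), so the numbers were not treated as pairs. With the replicate block the counts of passing members were 3, 1, 1 and 0, and no call changed. Low counts and the spread between libraries both limit Sp7, Bglap, Ibsp and Comp, and were not told apart.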
